A study of Mus musculus with 4 samples.

Results

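The Lrrtm and Lrfn genes encode leucine-rich repeat proteins of the neuronal surface that organise synapses. Their members were taken as every probe set that the platform annotation gives to exactly 1 gene named Lrrtm1 to Lrrtm4 or Lrfn1 to Lrfn5. This rule found 9 genes with 18 probe sets, among 18193 genes and 34945 probe sets of the series that were annotated in the same way. Expression was compared between MP amacrine cells and MP bipolar cells, both sorted from mouse retina at postnatal day 6. The MP amacrine cells carried both CFP and the label of VC1.1, an antibody to amacrine but not bipolar cells. The MP bipolar cells carried CFP without VC1.1, and before their sort a magnetic column removed VC1.1-labelled cells, so this handling and the group cannot be told apart. All samples came from offspring of males that carried the MP transgene and females that did not, on a mixed C57Bl6 x CD1 background, so the cells of both groups carry the transgene and its CFP reporter. There were 2 biological replicates per group, taken from separate litters, with about 1000 cells and 1 Affymetrix array for each. How many animals were pooled for a replicate, and the promoter that drives the transgene, are not given in the sources used here.

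In the inner retina, amacrine cells inhibit their targets, while bipolar cells are excitatory and carry photoreceptor signals to them and to ganglion cells. Lrrtm proteins lie mostly in the postsynaptic membrane, where they bind presynaptic neurexins or, for Lrrtm3 and Lrrtm4, heparan sulfate chains, and help to hold AMPA-type glutamate receptors at the synapse. Lrfn proteins, also called SALM proteins, add an immunoglobulin and a fibronectin domain to the repeats. Lrfn1, Lrfn2 and Lrfn4 end in a motif that binds PDZ scaffolds such as Dlg4 (PSD-95), Lrfn3 and Lrfn5 do not, and Lrfn4 and Lrfn5 bind presynaptic phosphatases of the LAR type.

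Values are deposited probe set intensities on a linear scale, without detection calls. A fold change is the difference of the group means of log2(intensity + 16), MP amacrine minus MP bipolar, which understates the difference of dim probe sets. Genes were tested with limma across the whole table, with the brightest probe set standing for a gene, where that probe set lay above the median of its array on at least 2 of the 4 arrays. The array medians lay between 44.5 and 47.1. A gene or probe set was called when its Benjamini-Hochberg adjusted p was under 0.05. Of 11583 genes tested, 13.5% were called, 6.54% as higher and 6.92% as lower in MP amacrine cells. Of 19168 probe sets tested singly, 10.2% were called, 5.04% as higher and 5.19% as lower in MP amacrine cells. Precision is limited by 2 arrays per group.

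Markers of the labelled cell types were compared first. Neurod6, the transcription factor in the title of the series, had intensities of 1679.6 and 1493 in MP amacrine cells, against 9.55 and 5.99 in MP bipolar cells. Of 8 amacrine markers 6 were called higher in MP amacrine cells, with summed intensities of 4463 and 4631 on the amacrine arrays, against 494.7 and 532 on the bipolar arrays. Of all tested genes, 6.54% were called as higher and 6.92% as lower. Neurod6 and the called markers Tfap2b and Tfap2c lay above the array median only on their MP amacrine arrays, so a difference was built into their passing. Gad2 was not called, at 169 and 216 in MP amacrine cells against 131 and 190 in MP bipolar cells (0.25), and Gad1 was too dim to be tested. Of 6 bipolar markers with a probe set 3 were called lower in MP amacrine cells (Vsx1, Otx2 and Cabp5), with sums of 2489 and 2287, against 8569.6 and 8658 in MP bipolar cells, and Trpm1 and Gng13 were too dim to be tested. Prkca was not called, at 490 and 478 in MP amacrine cells against 394 and 418 in MP bipolar cells (0.25). Markers of other retinal cell types also gave signal, and its source was not tested. Summed rod markers were 10410.1 and 6149.6 in MP amacrine and 6930.5 and 8509 in MP bipolar cells. Summed Müller glia markers were 2653 and 2481 in MP amacrine and 2001 and 2396 in MP bipolar cells. Most of these glia sums came from Glul, at 2103 and 1870 in MP amacrine and 1594 and 1937 in MP bipolar cells. Slc1a3 was the 1 called member of 6 (higher in MP amacrine cells), and the uncalled Rlbp1 (1.30), Apoe (1.65) and Clu (-0.84) differed in sign. Slc1a3 also lay above the array median only on its MP amacrine arrays. Summed microglia markers varied more, at 1039.5 and 3501 in MP amacrine and 1351 and 232 in MP bipolar cells, with Csf1r called higher in MP amacrine cells. Much of this variation came from the uncalled Ctss, at 567 and 2665 in MP amacrine and 1003 and 2.27 in MP bipolar cells. Summed cone markers were 789.5 and 633.5 in MP amacrine and 694 and 652 in MP bipolar cells, with Gnat2 called higher in MP amacrine cells (1.15) and Opn1sw at -1.74 and not called. Summed ganglion cell markers were 2122 and 1679 in MP amacrine and 2648 and 3540 in MP bipolar cells, with Thy1 called lower in MP amacrine cells (-1.41) and Pou4f1 (1.08) and Nefl (2.23) not called. Summed horizontal cell markers were 807 and 551 in MP amacrine and 323.5 and 236 in MP bipolar cells. Of these, Calb1 had 517 and 39.5 in MP amacrine and 19.2 and 17.0 in MP bipolar cells. Any part of other cell types in the values that follow was not tested. In sorted populations of this kind, fewer expressing cells and less RNA per cell cannot be told apart. MP amacrine replicate 2 also had larger differences between its 3-prime and 5-prime control signals, 3.21 for Gapdh and 3.82 for actin on the log2 scale, against 1.78 and 1.89 in MP amacrine replicate 1, 1.95 and 2.13 in MP bipolar replicate 1 and 2 and 1.99 in MP bipolar replicate 2.

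Of the 9 genes 1 was called in each direction. Lrfn5 was higher and Lrrtm3 was lower in MP amacrine cells, Lrrtm2, Lrfn1 and Lrfn3 were tested and not called, and Lrrtm1, Lrrtm4, Lrfn2 and Lrfn4 were too dim by their brightest probe set to be tested. Calls were thus made for 2 of 5 tested genes, where 13.5% of all tested genes were called. Tested singly, 11 of the 18 probe sets passed the filter, and 7 of them were called, 2 as higher and 5 as lower in MP amacrine cells. All 4 Lrrtm3 probe sets were among those called as lower. Of all probe sets tested singly, 10.2% were called, 5.04% as higher and 5.19% as lower. For 5 of the 11 member probe sets, only the arrays of the brighter group lay above the array median. These were those of Lrfn5 and Lrrtm4, 1 of Lrrtm2 and 2 of Lrrtm3. A difference was thus built into their passing, and the counts are given as a description.

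**Figure D1:**
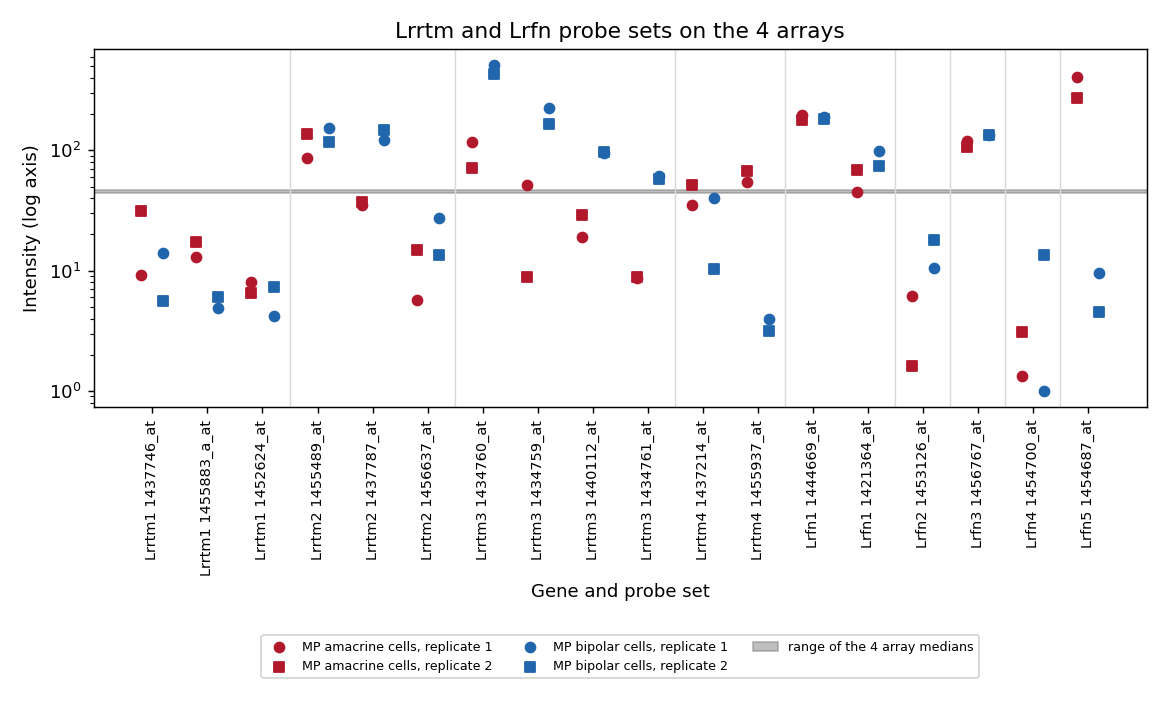
Intensity of each Lrrtm and Lrfn probe set on the 4 arrays (log axis), with MP amacrine arrays in red at the left and MP bipolar arrays in blue at the right of each position. The grey band is the range of the array medians, 44.5 to 47.1. The Lrfn5 amacrine points (411 and 271) lie far above its bipolar points (9.59 and 4.57), and the bipolar points of all 4 Lrrtm3 probe sets lie above their amacrine points.

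The regions before the transcript starts of Lrfn5, Lrrtm4 and Lrrtm3 are shown because Lrfn5 and Lrrtm3 were called in opposite directions as genes and Lrrtm4 had 1 called probe set. Lrrtm2 also had 1 called probe set, and its window was not used here. Each is the stretch of 250 bases upstream of a RefSeq transcript start, 5′ to 3′ on the strand of the gene, with the E-box motif CANNTG in capitals. This motif, which reads the same on both strands, is the general binding motif of basic helix-loop-helix factors, the family of Neurod6. Lrrtm4 has a pair of such windows for its 2 annotated starts.
Lrfn5 (GRCm38.p6, chr12:61522917-61523166, plus strand): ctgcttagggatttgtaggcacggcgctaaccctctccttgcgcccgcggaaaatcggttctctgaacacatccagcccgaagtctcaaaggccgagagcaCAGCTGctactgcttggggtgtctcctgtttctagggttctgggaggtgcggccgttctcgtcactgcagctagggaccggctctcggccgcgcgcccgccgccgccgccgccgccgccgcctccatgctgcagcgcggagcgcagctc
Lrrtm4 (GRCm38.p6, chr6:80018627-80018876, plus strand): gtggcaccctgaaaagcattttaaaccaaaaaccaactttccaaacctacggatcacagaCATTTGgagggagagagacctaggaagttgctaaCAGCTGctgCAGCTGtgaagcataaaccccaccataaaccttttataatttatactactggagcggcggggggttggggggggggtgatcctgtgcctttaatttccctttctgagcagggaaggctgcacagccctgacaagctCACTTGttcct
Lrrtm4 (GRCm38.p6, chr6:80019393-80019642, plus strand): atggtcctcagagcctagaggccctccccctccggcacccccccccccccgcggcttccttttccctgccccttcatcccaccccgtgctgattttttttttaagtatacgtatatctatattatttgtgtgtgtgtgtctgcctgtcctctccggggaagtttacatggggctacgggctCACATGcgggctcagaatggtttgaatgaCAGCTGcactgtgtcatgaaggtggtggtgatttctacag
Lrrtm3 (GRCm38.p6, chr10:64090256-64090505, minus strand): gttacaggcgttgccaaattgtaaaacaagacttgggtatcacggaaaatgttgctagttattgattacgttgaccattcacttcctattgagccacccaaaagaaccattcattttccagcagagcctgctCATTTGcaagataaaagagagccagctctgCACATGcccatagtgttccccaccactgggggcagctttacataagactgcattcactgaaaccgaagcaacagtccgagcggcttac

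Every one of these windows held CANNTG, as did 66.2% of 32851 windows of that length in the RefSeq promoter table. The form CAGCTG, which is one of those that CANNTG covers, occurred 1 time in the Lrfn5 window, 2 times in the upstream Lrrtm4 window and 1 time in the downstream one, and 0 times in the Lrrtm3 window, while 13.0% of all windows held it. CAGCTG was picked after the sequences had been read. Windows were read for 6 of the 9 genes, and those of Lrrtm1, Lrfn3 and Lrfn4 held 1 CANNTG match each and 0 of CAGCTG. The Lrfn5 window was also rich in CpG, with 27 CpG dinucleotides and 66.4% G or C. So were the windows of the uncalled Lrfn3 (20 and 74.4%) and the untested Lrfn4 (21 and 73.6%). The Lrrtm3 window had 6 and 46.0%, and the medians over all windows were 6 and 52.4%. A match describes the letters of a window and shows no binding.

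Lrrtm3 was the member with the most probe sets, and all 4 were lower in MP amacrine cells. The brightest, 1434760_at, had intensities of 118 and 70.8 in MP amacrine cells, against 509.5 and 431 in MP bipolar cells. The next, 1434759_at, had 51.7 and 8.93 in MP amacrine cells, against 227 and 165 in MP bipolar cells. Probe set 1440112_at had 18.9 and 29.0 in MP amacrine cells, against 95.5 and 96.9 in MP bipolar cells. None of these probe sets overlapped between the groups, nor did 51.8% of all probe sets tested singly, but their MP amacrine values differed in spread, and 1434759_at had its low value on MP amacrine replicate 2, the array with the large 3-prime to 5-prime differences. The dimmest, 1434761_at, had 8.63 and 8.80 in MP amacrine cells, against 60.9 and 58.3 in MP bipolar cells, so its MP amacrine values lay in the range where the offset of 16 outweighs the signal.

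The Lrrtm3 gene was lower by 4.50-fold in MP amacrine cells, a log2 fold change of -2.17 (SE 0.27, 95% interval -2.79 to -1.54, adjusted p = 0.00131, limma over genes), rank 173 among the negative fold changes of the tested genes. Tested singly, its probe sets gave -2.17, -2.35, -1.5 and -1.61 from the brightest to the dimmest. Their adjusted p lay between 0.00351 and 0.0209 (limma over probe sets). Of them, 1440112_at and 1434761_at lay above the array median only on their MP bipolar arrays, so a difference was built into their passing. The sizes of the dimmer probe sets depended on the offset, with -3.09, -1.99 and -2.64 for 1434759_at, 1440112_at and 1434761_at with an offset of 1, and -1.49, -0.87 and -0.76 with an offset of 64. The gene call held without each array in turn, at -1.86 to -2.48. Without MP bipolar replicate 1 and without replicate 2, 1434759_at was at -2.14 and -2.57, and 1440112_at at -1.51 and -1.49. In these fits the spread came from the MP amacrine arrays alone. There 1434759_at did not pass in either fit, and 1440112_at did not pass without MP bipolar replicate 2.

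Lrrtm4, whose protein has been found at synapses of rod bipolar cells, gave different answers by probe set. Probe set 1455937_at had 54.2 and 67.9 in MP amacrine cells, against 3.95 and 3.12 in MP bipolar cells. The groups were well apart, and both MP bipolar values lay near the bottom of the scale. The other probe set, 1437214_at, which was the brighter on average, had 35.2 and 51.1 in MP amacrine cells, against 40.4 and 10.4 in MP bipolar cells, and the groups overlapped. It lay above the array median on 1 array only, so Lrrtm4 was not tested as a gene. Tested singly, 1455937_at was higher in MP amacrine cells by 1.98 on the log2 scale (SE 0.21, 95% interval 1.47 to 2.48, adjusted p = 0.00197, limma over probe sets), and by 1.85 to 2.10 without each array in turn. The probe set 1455937_at lay above the array median only on its MP amacrine arrays, so a difference was built into its passing. The value of 1437214_at was 0.60. The size for 1455937_at depended on the offset, at 3.77 with an offset of 1 and 0.89 with an offset of 64.

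Lrrtm2, a neurexin-binding member known to anchor AMPA receptors, was likewise split. Its brightest probe set, 1455489_at, had 86.6 and 136 in MP amacrine cells, against 155 and 117 in MP bipolar cells, and the groups overlapped. Probe set 1437787_at had 35.02 and 37.03 in MP amacrine cells, against 121 and 148 in MP bipolar cells, with no overlap. Lrrtm2 was not called as a gene, at -0.27 (95% interval -0.88 to 0.35, adjusted p = 0.618, limma over genes), and with the mean of its probe sets it was -0.75 (adjusted p = 0.0543, limma). Tested singly, 1437787_at was lower in MP amacrine cells, at -1.53 on the log2 scale (SE 0.21, adjusted p = 0.00530, limma over probe sets), and did not pass without MP bipolar replicate 2 (-1.40, adjusted p = 0.0539). With an offset of 64 it was -0.99. This probe set lay above the array median only on its MP bipolar arrays, so a difference was built into its passing. A 3rd probe set, 1456637_at, lay below the filter at 5.73 and 14.9 in MP amacrine cells and 27.5 and 13.5 in MP bipolar cells.

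Lrrtm1 was dim on every array. Its 3 probe sets ranged from 6.49 to 31.1 in MP amacrine cells and from 4.21 to 14.1 in MP bipolar cells, and none lay above the median of any array. For 1455883_a_at the groups did not overlap, at 13.0 and 17.4 in MP amacrine cells and 4.90 and 6.01 in MP bipolar cells, but the difference was 0.54 on the log2 scale and the probe set was not tested. The groups of the other Lrrtm1 probe sets overlapped.

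Lrfn5, an Lrfn protein that binds LAR-type phosphatases, had the largest difference of the family. Its only probe set, 1454687_at, had 411 and 271 in MP amacrine cells, against 9.59 and 4.57 in MP bipolar cells, a mean of 341 ± 98.9 and 7.08 ± 3.55 (SD, n = 2 each). Both amacrine values stood far above both bipolar values, and the bipolar values lay below the median of every array. Lrfn5 thus passed the filter on its MP amacrine arrays alone, so a difference was built into its passing. The gene was higher in MP amacrine cells by 15.3-fold, or 3.93 on the log2 scale (SE 0.26, 95% interval 3.33 to 4.53, adjusted p = 5.60e-05, limma over genes), which was rank 50 among the positive fold changes of 11583 tested genes. The difference was 3.64 to 4.22 without each array in turn. Its size depended on the offset, at 5.45 with an offset of 1 and 2.49 with an offset of 64.

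The other Lrfn genes showed small differences or low signal. Lrfn1, which ends in a PDZ-binding motif, had 199 and 178 in MP amacrine cells, against 190.5 and 181 in MP bipolar cells, for its brighter probe set 1444669_at. The groups overlapped, with a fold change of 0.02 (95% interval -0.48 to 0.51, adjusted p = 0.978, limma over genes). Its dimmer probe set 1421364_at had 45.5 and 69.0 in MP amacrine cells, against 99.3 and 74.9 in MP bipolar cells, without overlap, and was not called (-0.50, adjusted p = 0.313, limma over probe sets).

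Lrfn3, which lacks the PDZ-binding motif, had 120.01 and 108 in MP amacrine cells, against 136 and 135 in MP bipolar cells. Its groups did not overlap, as was the case for 53.3% of all tested genes, and it was not called at -0.22 (95% interval -0.70 to 0.25, adjusted p = 0.588, limma over genes). Lrfn2 and Lrfn4, which carry the motif, lay below the median of every array. Lrfn2 had 6.10 and 1.62 in MP amacrine cells, against 10.6 and 18.0 in MP bipolar cells, and Lrfn4 had 1.32 and 3.08 in MP amacrine cells, against 1 and 13.5 in MP bipolar cells. Their differences of -0.61 and -0.30 were not tested, and with no detection calls their values cannot be told from background.

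**Figure D2:**
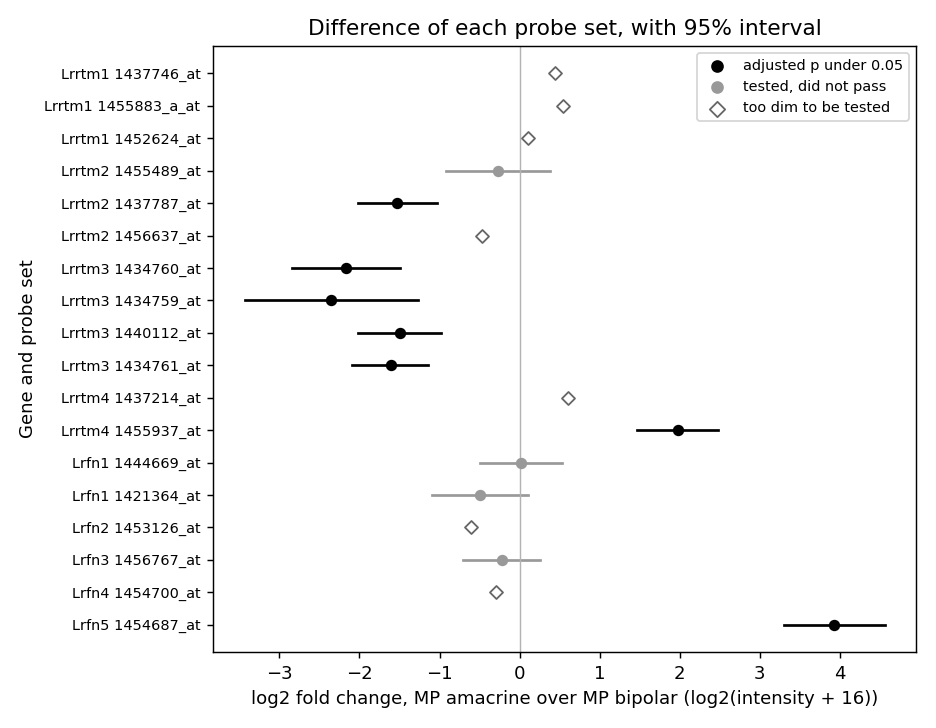
Log2 fold change of each probe set, MP amacrine over MP bipolar, on the log2(intensity + 16) scale. Lines are 95% intervals of the limma fit over probe sets, black for adjusted p under 0.05, grey for the other tested probe sets, and open diamonds mark probe sets too dim to be tested. All 4 Lrrtm3 probe sets lie between -1.5 and -2.35, while Lrrtm2 and Lrrtm4 have 1 called probe set each.

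**Figure D3:**
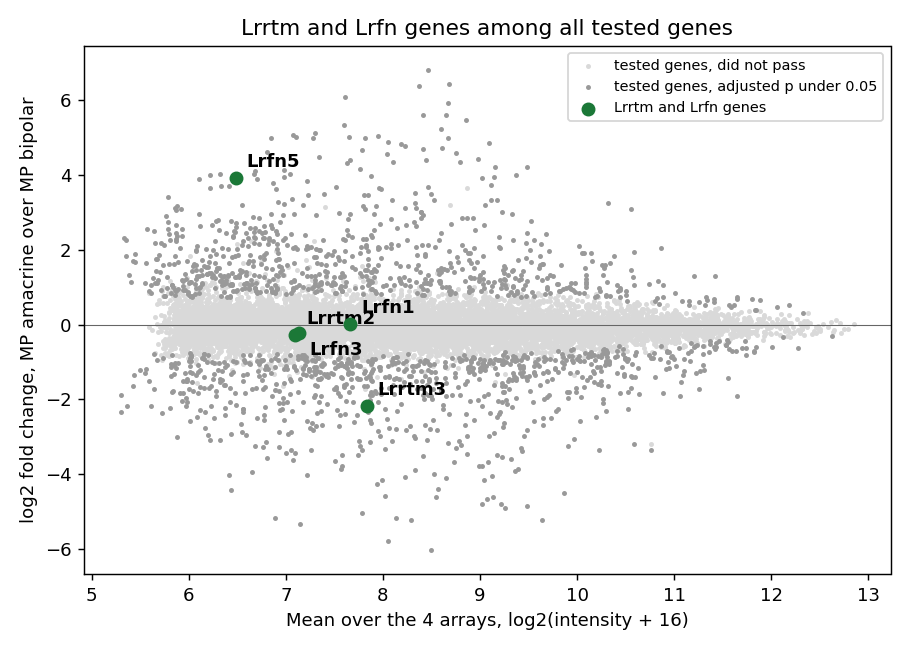
Log2 fold change against the mean log2(intensity + 16) over the 4 arrays for the 11583 tested genes, with the 5 tested Lrrtm and Lrfn genes in green. Lrfn5 (3.93) and Lrrtm3 (-2.17) lie among the called genes, and Lrrtm2, Lrfn1 and Lrfn3 lie near 0.

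The tested genes closest to the called members across the 4 arrays, by Euclidean distance between log2 values centred on their means, were found for each. For Lrfn5 they were Vstm2a (distance 0.24), with 511 and 329 in MP amacrine cells against 9.54 and 7.64 in MP bipolar cells, and Lratd1 (distance 0.24), with 497 and 317 in MP amacrine cells against 9.19 and 9.01 in MP bipolar cells. For Lrrtm3 they were Gnb3 (distance 0.12), a G protein subunit gene, with 135 and 76.5 in MP amacrine cells against 607 and 503 in MP bipolar cells, and Fn1 (distance 0.19), the fibronectin gene, with 81.4 and 55.4 in MP amacrine cells against 441 and 352 in MP bipolar cells. Vstm2a and Lratd1, like Lrfn5, lay above the array median only on their MP amacrine arrays, so a difference was built into their passing. The MP bipolar values of Vstm2a, Lratd1 and Lrfn5 lay in the range where the offset outweighs the signal. The offset narrows differences there, so the distances for Lrfn5 say little about likeness in MP bipolar cells. All these likenesses rest on 4 arrays and on the ranking of all tested genes.

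Presynaptic partners of both families were among the differing genes. The counts of each list stand beside 13.5% of all tested genes called, 6.54% as higher and 6.92% as lower in MP amacrine cells. Of 2 neurexin genes with a probe set, Nrxn3 was lower in MP amacrine cells (-0.78, SE 0.12, adjusted p = 0.00407, limma), with 1835 and 1988 in MP amacrine against 3218 and 3364 in MP bipolar cells, while Nrxn2 was not called, and their median was -0.35. Of the 3 LAR-type phosphatases, Ptprd was lower in MP amacrine cells (-1.44, SE 0.11, adjusted p = 1.18e-04, limma), with 1766 and 1858 in MP amacrine against 4802 and 5109 in MP bipolar cells. Ptprf was higher (1.09, SE 0.23, adjusted p = 0.0171, limma), with 1297 and 1255 in MP amacrine against 719 and 484 in MP bipolar cells, and did not pass without MP amacrine replicate 2 (adjusted p = 0.0505) or MP bipolar replicate 2 (adjusted p = 0.114). The median of the phosphatases was -0.22. Nrxn3 did not pass without MP bipolar replicate 2 (adjusted p = 0.0553). Of 8 tested glypicans and syndecans, the heparan sulfate proteoglycans of the cell surface, Sdc1 (1.82) and Gpc2 (1.41) were called as higher in MP amacrine cells and no gene as lower, with a median of 0.15, against -0.03 over all tested genes. Sdc1 lay above the array median only on its MP amacrine arrays, with 18.8 and 28.8 in MP bipolar cells, so a difference was built into its passing. Gpc2 did not pass without MP bipolar replicate 2 (adjusted p = 0.0921). Of 4 tested genes for other neurexin ligands, the neuroligins and cerebellins, 0 were called at an adjusted p under 0.05 and 1, Cbln2 (-0.72, adjusted p = 0.0547), had an unadjusted p under 0.05 (limma), with a median of 0.33, and the brightest, Nlgn2, had 0.28 (95% interval -0.20 to 0.76).

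Postsynaptic partners were divided by gene. Of 4 tested PDZ scaffold genes, Dlg2 (PSD-93) was higher in MP amacrine cells (1.5, SE 0.25, adjusted p = 0.00540, limma) and none was lower, with a median of 0.11. With the mean of its 3 probe sets Dlg2 did not pass (0.57, adjusted p = 0.107). Of 4 AMPA receptor subunit genes, Gria3 (1.82) and Gria4 (1.52) were higher and Gria1 (-1.78, adjusted p = 0.0216) was lower in MP amacrine cells, with a median of 0.93. Gria1 did not pass without MP amacrine replicate 2 (adjusted p = 0.0881) or MP bipolar replicate 2 (-1.11, adjusted p = 0.0623). With the mean of all probe sets of a gene, Gria3 was 0.98 and Gria4 was 1.01, and both were still called. The brightest Gria3 probe set lay above the array median only on its MP amacrine arrays, with 32.0 and 28.6 in MP bipolar cells. A difference was thus built into its passing. Of 2 tested NMDA receptor subunit genes 0 were called and 1, Grin2b, had an unadjusted p under 0.05 (limma), at 0.61 (95% interval 0.13 to 1.09, adjusted p = 0.106), with a median of 0.32.

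In the RefSeq annotation Lrrtm1 lies within Ctnna2, Lrrtm2 within Ctnna1 and Lrrtm3 within Ctnna3, the genes of alpha-catenins, which link cadherins to actin. Ctnna2 was higher in MP amacrine cells, with 249 and 278 against 142 and 102 in MP bipolar cells (1.03, SE 0.24, adjusted p = 0.0248, limma). Ctnna1 was lower, with 436 and 406 in MP amacrine against 779 and 936 in MP bipolar cells (-0.99, SE 0.21, adjusted p = 0.0180). Ctnna3 was too dim to be tested, at 12.4 and 16.02 in MP amacrine and 6.33 and 14.8 in MP bipolar cells, where its nested gene Lrrtm3 was called. Neither host gene call held without MP bipolar replicate 1 (adjusted p = 0.0513 for Ctnna2 and 0.0559 for Ctnna1) or MP bipolar replicate 2 (adjusted p = 0.231 and 0.167), and Ctnna2 did not pass without MP amacrine replicate 2 (adjusted p = 0.0743). Ctnna1 also did not pass with the mean of its 4 probe sets (-0.49, adjusted p = 0.116) or with the probe sets ending in x_at or s_at left out, its brightest among them (-0.70, adjusted p = 0.137).

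Other leucine-rich repeat organizers of synapses had 3 of 13 tested genes higher and 3 lower in MP amacrine cells. Of all tested genes, 6.54% were called as higher and 6.92% as lower. The median of these organizers was -0.22. The members with the largest differences were of the Slitrk family, whose proteins also bind LAR-type phosphatases. Slitrk6 (-5.04) and Slitrk5 (-1.71) were lower and Slitrk2 (2.13) was higher in MP amacrine cells. With the mean of its 2 probe sets Slitrk2 was 1.09 and still called. Slitrk6 lay above the array median only on its MP bipolar arrays, with 34.7 and 13.3 in MP amacrine cells. Lrrc4 (1.34) and Elfn1 (0.83), also called as higher, did so only on their MP amacrine arrays. A difference was thus built into the passing of these genes.

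**Figure D4:**
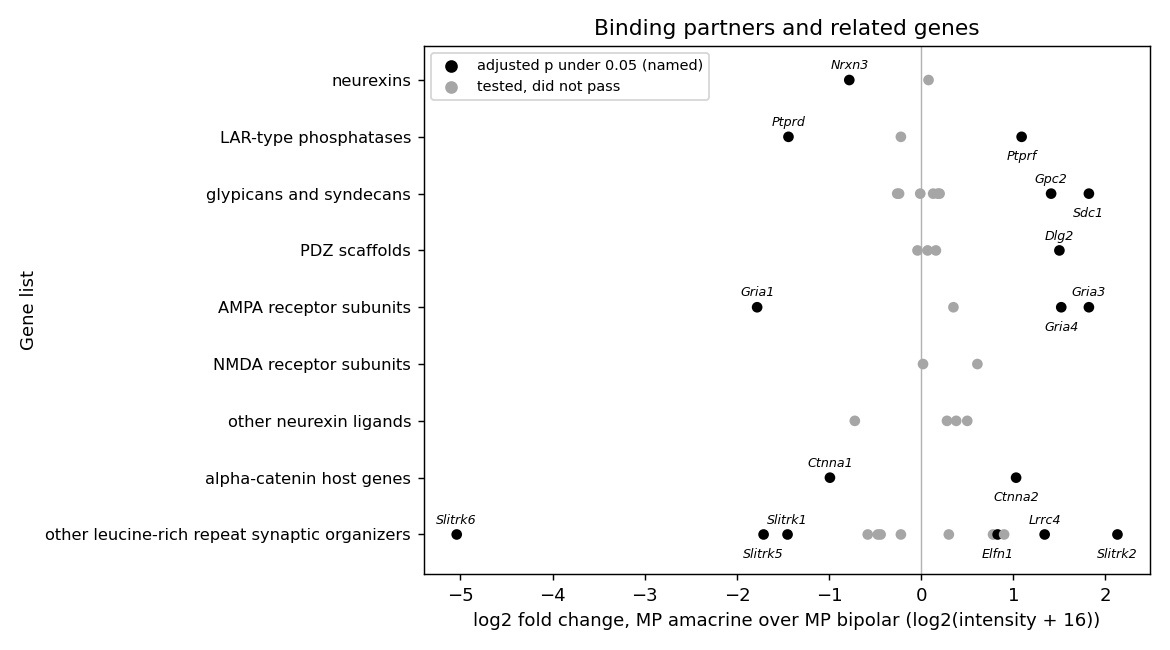
Log2 fold change, MP amacrine over MP bipolar, of the tested genes in each list of partners and related genes, with called genes in black and named. The LAR-type phosphatases, AMPA receptor subunits, alpha-catenin genes and other leucine-rich repeat organizers have calls in both directions, and AMPA receptor subunits run between -1.78 and 1.82.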

How the data were processed

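RNA of sorted MP amacrine and MP bipolar cells was amplified in 2 rounds, labelled with biotin and hybridised to Affymetrix arrays, per the labels' protocols. The deposited table holds 1 intensity on a linear scale per probe set and array, for 45101 probe sets. The steps by which the authors turned scans into deposited intensities are not given in the sources used here. Quartiles of log2(intensity + 16) lay within 0.0621 of each other across arrays, so values were used as deposited. On each array 27.8% to 28.7% of probe sets were below 16.

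The 64 controls were not tested. Of the others, 34945 had 1 gene in the platform annotation, 932 several and 9160 none. All 9 member symbols matched RefSeq by gene identifier. Samples were grouped by title. limma 3.58.1 in R 4.3.3 was used (lmFit, eBayes with an intensity trend, two-sided, 2 residual degrees of freedom), with Benjamini-Hochberg adjustment over 11583 genes or, for probe sets tested singly, over 19168 probe sets. The test was tested on simulated data. With an array left out, the lone array of its group was given the spread of the other group, and the same genes were tested.

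The text names all members, up to 3 called members of each related list by absolute fold change or else its brightest member, Neurod6, and the 2 genes nearest to each called member. Tfap2b, Tfap2c, Gad1, Gad2, Trpm1, Gng13, Vsx1, Otx2, Cabp5, Prkca, Opn1sw, Pou4f1, Nefl, Slc1a3, Glul, Rlbp1, Apoe, Clu, Calb1, Csf1r, Ctss, Gnat2, Thy1, Nrxn2, Cbln2, Ctnna3, Lrrc4, Elfn1 and the control genes were named after their values were seen. The members and lists were chosen with earlier results of these data known. Promoter windows are those of RefSeq for GRCm38.p6. Grin1 had no probe set with 1 gene and was not analysed here. Same-numbered arrays are not said to share a litter, and a check of their deviations is given with the alternatives.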

Additional observations from a re-analysis of the deposited data

How the results depend on the processing

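Lrfn5 and Lrrtm3 kept their direction and their call as genes under all 15 alternatives that test genes, over ranges of 2.49 to 5.45 and -2.48 to -1.77 on the log2 scale. Settings on the choice of probe set could not change the value of Lrfn5, which has 1 probe set. Leaving out probe sets ending in x_at or s_at, or taking the brightest above the filter, could not change that of Lrrtm3. The unit of the test and the choice of probe set decided how many members were called. With every probe set tested singly, 7 probe sets of members were called, 2 as higher and 5 as lower in MP amacrine cells. Of all probe sets tested singly, 10.2% were called. With the brightest probe set among those above the filter, added after seeing the data, 2 genes were called as higher, because Lrrtm4 was then tested through a probe set that passed by its MP amacrine arrays alone, so this count is a description. Members called as genes numbered 2 in all, 1 higher and 1 lower, with each replicate left out in turn. Without a filter on dim probe sets, 785 genes were called in all, 400 as higher and 385 as lower, against 1559, 758 and 801. Leaving out each replicate gave 917 to 1939 calls, 501 to 763 higher and 416 to 1176 lower, the fewest without MP bipolar replicate 2. Without a filter, the single probe sets 1434760_at (adjusted p = 0.0533), 1434759_at (0.165) and 1440112_at (0.0651) of Lrrtm3 and 1437787_at of Lrrtm2 (0.0537) did not pass, while 1434761_at of Lrrtm3 (0.0284) and 1455937_at of Lrrtm4 (0.0239) did (limma over probe sets).

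Of the uncalled tested members, Lrfn1 and Lrrtm2 changed sign and Lrfn3 did not (-0.29 to -0.15). Lrfn1 was -0.24 with the mean of its probe sets. With each replicate left out it lay between -0.06 (without MP amacrine replicate 1) and 0.09 (without MP amacrine replicate 2), with -0.02 without MP bipolar replicate 2, and Lrrtm2 lay between -0.55 (without MP amacrine replicate 2) and 0.02 (without MP amacrine replicate 1). The cause was not tested. Without a filter, Ctnna1, Ctnna2, Dlg2, Gpc2, Gria1, Ptprf and Slitrk5 did not pass, with adjusted p from 0.0521 to 0.154 (limma), and with the mean of all probe sets of a gene Ptprf did not (adjusted p = 0.0666, limma). With an offset of 64, Gria3 was 1.17 and Sdc1 was 1.10, both called. With the replicate block, 1932 genes were called, 2 members among them, and the block changed no member's call. Same-numbered arrays deviated from their group means with a correlation of -0.042 across genes. With 2 arrays per group this does not show whether they shared a litter, and the numbers were not taken to pair the samples. Signal near the bottom of the scale limits Lrrtm1, Lrfn2, Lrfn4, the bipolar side of Lrfn5 and Lrrtm4 and the amacrine side of the dimmer Lrrtm3 probe sets, whose sizes depend on the offset.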
